A study of Mus musculus with 2 samples.

Results

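Receptors first described on natural killer (NK) cells, and the adaptor proteins that carry their signals, were compared between gamma/delta T cells and CD8+ alpha/beta T cells. The 10 genes are Klrd1, Klrc1, Klrk1, Klre1, Klrg1, Klrb1c, Ncr1, Hcst, Tyrobp and Fcer1g, and they were read from every probe set to which the platform annotation gives one of these symbols and no other. This found 10 probe sets for 9 of the 10 genes, out of 34945 probe sets with 1 symbol for 18193 genes. Klrc1 had 2 probe sets and Klrb1c had none of its own. RNA came from 1 preparation of naive gamma/delta T cells labelled CD44-, and from 1 preparation of naive CD8+ alpha/beta T cells. Both were negatively selected from lymph nodes of C57BL/6 mice, and each was read on a separate Affymetrix MOE430 2.0 array, where a gene is read by 1 or more sets of short probes. The labels give no age, sex or number of mice, and no genetic change or treatment. Neither group was replicated, so no error or p-value can be given and every ratio below compares these 2 preparations.

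Most of these receptors belong to the C-type lectin-like family encoded in the NK gene complex, while Ncr1 is an immunoglobulin-like receptor. Inhibitory members carry a tyrosine motif in their own tail that recruits phosphatases. Activating members have short tails and borrow an adaptor: Hcst (DAP10) recruits phosphatidylinositol 3-kinase and Grb2, whereas Tyrobp (DAP12) and Fcer1g (the Fc receptor gamma chain) carry an activation motif that recruits Syk family kinases. The same receptors appear on some gamma/delta T cells and on activated or memory CD8+ T cells.

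Of the 10 probe sets, 3 had a signal above background on both arrays, 1 on the alpha/beta array alone, and 6 on neither. Of all 34945 probe sets with 1 symbol, 41.9% were above background on neither array, and 10 are too few to set against that share. Background was set at a floor of 243.3 signal units, the median of the gamma/delta array and the higher of the arrays' medians. This is a stricter limit than the 167.2 reached by controls for bacterial transcripts not added to the sample. With a floor at 167.2, 7 of the 10 probe sets had a ratio. Signals under the floor of 243.3 were raised to it before ratios were taken. A ratio with 1 array under the floor is thus a bound, written as at least so many fold. Klrd1 was 4.32-fold lower in gamma/delta cells, Hcst was 2.48-fold higher, and Klrg1 and Fcer1g did not reach 2-fold. Thus 2 of the 4 probe sets with a ratio passed the 2-fold call, a ratio of 2 or more, with 1 in each direction and a median log2 ratio of -0.05 over the 4. Of 20297 probe sets with 1 symbol and a ratio, 9.57% passed it, 5.2% towards gamma/delta and 4.37% towards alpha/beta. By genes the count was again 2 of 4, against 9.74% of 11914 genes (5.82% towards gamma/delta, 3.93% towards alpha/beta), and 4 values are too few to set against that share. In a bulk preparation a lower signal can come from fewer cells of a type or from less RNA per cell, which cannot be told apart here.

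**Figure D1:**
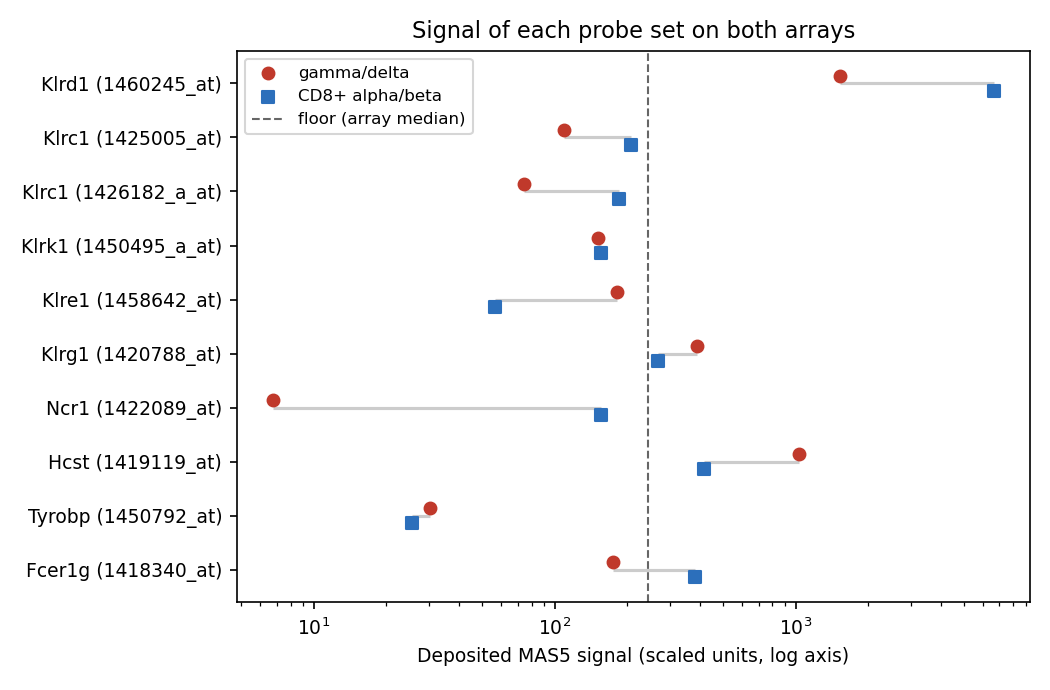
Deposited signal of each of the 10 probe sets on a log axis, in gamma/delta cells (circles, drawn above) and in CD8+ alpha/beta cells (squares), with the floor of 243.3 as a dashed line. Klrd1, Klrg1 and Hcst lie right of the floor on both arrays, Fcer1g straddles it, and the other 6 probe sets lie left of it on both.

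Klrd1 encodes CD94, the invariant partner chain of the NKG2 receptors that bind Qa-1. Its signal was 1532 in gamma/delta cells, against 6623 in alpha/beta cells, a log2 ratio of -2.11. Both signals stood well clear of the floor, at 6.29 and 27.2 times its value. Among 8792 genes above the floor on both arrays, 15 lay as far or further towards alpha/beta cells, Klrd1 included, which is 0.171%. Probe sets that read the same gene differed with a pooled SD of 0.50 on the log2 scale over 3317 genes, and the Klrd1 difference was 4.23 times that SD in size. The 18 probe sets for spiked-in transcripts ran from -0.21 to 0.05 on the same scale, with a median of -0.09. Neither measures the spread between animals. Klrd1 has a single probe set, and no other reading of the transcript was available to set beside it.

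None of the NKG2 chains that pair with CD94 was above the floor on both arrays. Klrc1 encodes NKG2A, the inhibitory partner. One of its probe sets read 109 in gamma/delta cells, against 207 in alpha/beta cells, and the other read 74.5 in gamma/delta cells, against 185 in alpha/beta cells. All 4 values were under the floor, so no ratio or direction is given. Klrc2, which encodes the activating chain NKG2C, read 169 in gamma/delta cells, against 298 in alpha/beta cells, which bounds the difference at 1.23-fold or more, lower in gamma/delta cells. Klrc3, another NKG2 chain, read 184 in gamma/delta cells, against 84.8 in alpha/beta cells, under the floor on both arrays. A probe set shared by Klrc3 and Klrc2 read 119 in gamma/delta cells, against 50.1 in alpha/beta cells, also under the floor on both. The direction of Klrc2 thus rests on 1 probe set. A signal under the floor is not well above background, and it does not show that the transcript was missing.

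Klrk1 encodes NKG2D, the activating receptor for stress-induced ligands, which signals through Hcst and, in mice, also through Tyrobp. Its probe set read 152 in gamma/delta cells, against 155 in alpha/beta cells, under the floor on both arrays. Klre1, a receptor described in mouse NK cells that pairs with Klri chains, read 182 in gamma/delta cells, against 56.7 in alpha/beta cells, again under the floor. In the RefSeq gene table the 6 genes Klre1, Klrd1, Klrk1, Klrc3, Klrc2 and Klrc1 follow each other on chromosome 6 with no other protein-coding gene between them. Klrd1 was the one gene of this run above the floor on both arrays, and its neighbours on either side, Klre1 and Klrk1, were under it on both.

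Klrg1 encodes an inhibitory receptor for cadherins that marks late effector T cells and mature NK cells. Its signal was 388 in gamma/delta cells, against 267 in alpha/beta cells, a log2 ratio of 0.54. This did not reach the 2-fold call and was 1.07 times the SD between probe sets. As many as 1670 of the 8792 genes, 19.0%, lay as far or further towards gamma/delta cells. The alpha/beta signal was only 1.10 times the floor, so the value lies at the edge of what the array separates from background.

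Ncr1 encodes NKp46, a receptor used to define NK cells. It read 6.76 in gamma/delta cells, against 155 in alpha/beta cells, both under the floor. Although the deposited values differ widely, the higher one lies below the signal of 161.8 that a control for a bacterial transcript not added to the sample reached on the alpha/beta array, and no ratio is drawn from it. Klrb1c encodes NK1.1, the other defining NK marker of C57BL/6 mice, and shares its probe set with Klrb1b, an inhibitory member of the same family. That shared probe set read 411 in gamma/delta cells, against 438 in alpha/beta cells, above the floor on both arrays and differing by a log2 ratio of -0.09. It cannot be assigned to either gene. The brightest of the probe sets of Klrb1b alone read 285 in gamma/delta cells, against 183 in alpha/beta cells, a bound of 0.23 on the log2 scale.

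**Figure D2:**
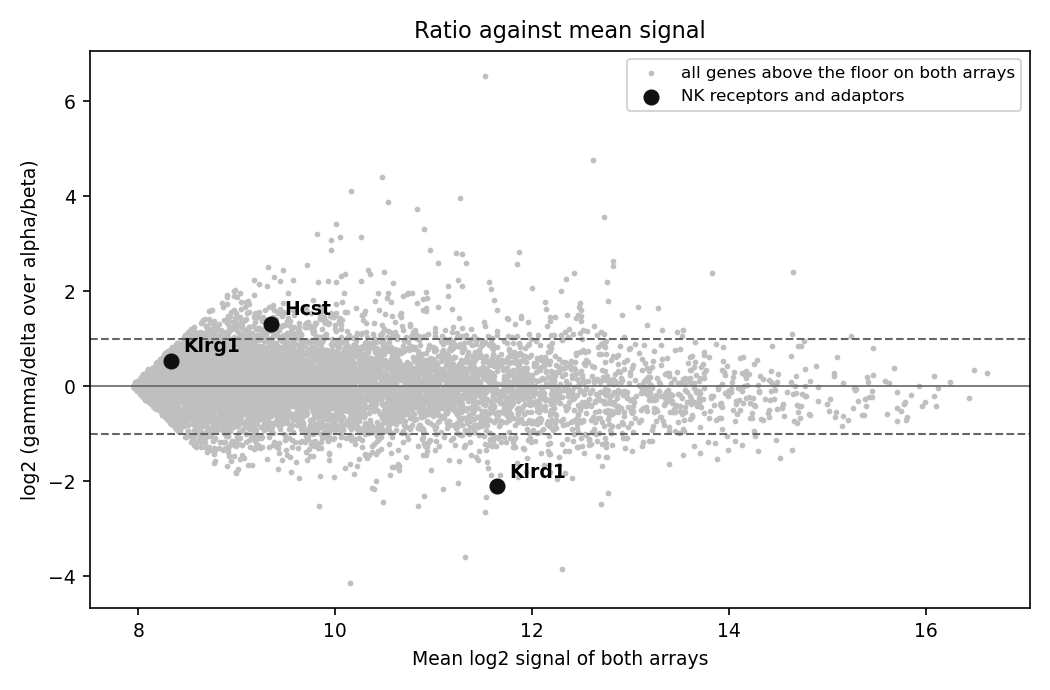
Log2 ratio (gamma/delta over alpha/beta) against the mean log2 signal of both arrays, for the 8792 genes above the floor on both (grey) and the 3 NK receptor and adaptor genes among them (black). Dashed lines mark the 2-fold call. Klrd1 at -2.11 has 15 genes as far or further down, itself included, Hcst at 1.31 lies above the call, and Klrg1 at 0.54 lies within the bulk of the genes.

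The 3 adaptors differed in their readings. The Hcst signal was 1028 in gamma/delta cells, against 414 in alpha/beta cells, a log2 ratio of 1.31, or 2.63 times the SD between probe sets. Of the 8792 genes above the floor on both arrays, 234 (2.66%) lay as far or further towards gamma/delta cells. Fcer1g read 174 in gamma/delta cells, under the floor, against 379.9 in alpha/beta cells, above it. The gamma/delta level was therefore at least 1.56-fold lower, a bound that does not reach the call. The deposited values themselves differ 2.18-fold, and with a floor at the highest bacterial control, 167.2, Fcer1g passed the call with a log2 ratio of -1.12. Tyrobp read 30.3 in gamma/delta cells, against 25.5 in alpha/beta cells, far under the floor on both arrays. Hcst and Tyrobp are neighbouring genes on chromosome 7 in the RefSeq table, and of the pair Hcst alone was above the floor. The receptor that uses Hcst, Klrk1, was under the floor in both preparations.

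Promoter windows are shown for Hcst, the one adaptor above the floor on both arrays, and beside it for Fcer1g, the adaptor lower in gamma/delta cells, and Klrk1, the receptor that uses Hcst. RefSeq windows of GRCm38.p6, from 250 bases before to 50 after each start, were listed for 7 of the 10 genes. Those of Hcst (chr7:30419805-30420104, minus strand), Fcer1g (chr1:171234300-171234599, minus strand) and Klrk1 (chr6:129623815-129624114, minus strand) are given 5′ to 3′. Capitals mark AGGAAGT, a motif of ETS factors, and TGTGGT, a motif of RUNX factors, searched on both strands. The motifs do not overlap one another in these windows, and they were chosen after the Hcst window had been read.
Hcst: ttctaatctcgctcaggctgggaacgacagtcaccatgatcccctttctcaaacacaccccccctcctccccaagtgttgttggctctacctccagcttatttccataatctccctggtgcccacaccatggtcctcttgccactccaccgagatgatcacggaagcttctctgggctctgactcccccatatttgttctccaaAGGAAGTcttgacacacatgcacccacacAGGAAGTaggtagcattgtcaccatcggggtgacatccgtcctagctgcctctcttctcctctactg
Fcer1g: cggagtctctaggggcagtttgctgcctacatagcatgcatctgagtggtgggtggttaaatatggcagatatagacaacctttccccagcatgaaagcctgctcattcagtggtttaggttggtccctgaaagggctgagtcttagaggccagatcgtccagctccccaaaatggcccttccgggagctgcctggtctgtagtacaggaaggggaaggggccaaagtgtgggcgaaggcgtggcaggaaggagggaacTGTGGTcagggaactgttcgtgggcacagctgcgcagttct
Klrk1: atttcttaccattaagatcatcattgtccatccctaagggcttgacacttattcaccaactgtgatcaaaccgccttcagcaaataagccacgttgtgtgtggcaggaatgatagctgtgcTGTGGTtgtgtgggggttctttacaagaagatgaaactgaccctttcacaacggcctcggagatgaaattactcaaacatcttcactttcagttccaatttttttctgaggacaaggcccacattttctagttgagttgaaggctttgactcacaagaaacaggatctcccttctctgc

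The Hcst window holds AGGAAGT at bases 205 to 211, counted from the 5′ end of the window, and again at bases 234 to 240, both on the gene's strand and both ahead of the start. No other listed window of the 10 genes holds it, and 9.35% of 32851 windows of this length do. TGTGGT was absent from the Hcst window and present in at least 1 window of the other 6 listed genes, Fcer1g, Klrk1, Klrb1c, Klrc1, Klre1 and Ncr1, while 16.8% of all windows hold it. In Fcer1g it lies at bases 260 to 265, after the start, and in Klrk1 at bases 122 to 127. The letters TATAAA were found in the Klrc1 window alone, against 13.6% of all windows. Ncr1 and Klre1 had 2 overlapping windows each. These are matches of letters and not binding sites.

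Genes that act with these receptors were set beside them in lists by role, with 1 probe set per gene, the one of the highest mean log2 signal. Over all genes with a ratio the median log2 ratio was 0.03 and 9.74% passed the 2-fold call. Of 12 measured lectin-like receptors outside the 10, mostly Ly49 (Klra) and NKR-P1 (Klrb1) genes, 5 were below the floor in both preparations, and 1 of the 7 with a ratio passed the call. It was Klra5, a Ly49 receptor, with 490 in gamma/delta cells, against 217 in alpha/beta cells, a difference of at least 2.01-fold. The list's median was 0.12. Ly49 genes are close in sequence and their probe sets may read one another's transcripts.

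Of 8 other NK cell receptors, all with a ratio, 2 passed the call towards gamma/delta cells and 0 towards alpha/beta cells, and the median was -0.04. Cd96, a receptor for nectin-family ligands, read 2654 in gamma/delta cells, against 1221 in alpha/beta cells, 2.17-fold higher. Slamf7, a SLAM family receptor, read 520 in gamma/delta cells, against 137 in alpha/beta cells, at least 2.14-fold higher. Slamf7 lost the call with the floor at the 70th percentile, 447.2, where its bound was 0.22. Probe sets of Lair1, an inhibitory collagen receptor, disagreed: the one that stands for the gene had a bound of 0.01, while another read 1017 in gamma/delta cells, against 26.3 in alpha/beta cells, a bound of 2.06. Without probe sets of _x_at, _s_at or _a_at endings, which can read several transcripts, the 2 genes past the call were Cd96 and Lair1, and Slamf7 had no probe set. Lair1 was chosen after its values were seen.

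Ligands of the receptors were measured in the same cells. Of 11 with a probe set of their own, 9 had a ratio and 0 passed the call in either direction, with a range from -0.72 to 0.88 and a median of -0.16. The brightest probe set was that of Cdh2, a cadherin of the type bound by Klrg1, with 2938 in gamma/delta cells, against 2558 in alpha/beta cells. Clec2d, the ligand of NKR-P1 receptors, read 761 in gamma/delta cells, against 1225 in alpha/beta cells, a log2 ratio of -0.69. Clec2d was chosen after its values were seen.

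Of 19 measured genes that act with these adaptors, mostly receptors such as Fc receptors and the TREM family, 12 had a ratio and 0 passed the call, with a median of 0.10. The brightest was Cd247, with 2415 in gamma/delta cells, against 2476 in alpha/beta cells. Cd247 encodes the CD3 zeta chain, a signalling chain that also serves Ncr1, and not a receptor that uses the adaptors. On the log2 scale its 4 probe sets above the floor spanned -1.13 to -0.04. Most of the others are genes of myeloid cells. Fcer1a, the receptor chain that gave Fcer1g its name, read 144 in gamma/delta cells, against 131 in alpha/beta cells, under the floor on both arrays. Fcer1a was also chosen after its values were seen.

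Downstream signalling genes were mostly above the floor in both preparations. Of 25 measured, 21 were above the floor on both arrays and 4 on neither, and the call was passed by 2 towards gamma/delta cells and by 1 towards alpha/beta cells, around a median of 0.20. Ptpn6 (SHP-1), a phosphatase recruited by inhibitory NK receptors, read 878 in gamma/delta cells, against 288 in alpha/beta cells, 3.05-fold higher. Ptpn6 lost the call with the floor at the 70th percentile (a bound of 0.97) and with its probe sets averaged (a bound of 0.80). Lat, a membrane scaffold of antigen receptor signalling, read 3594 in gamma/delta cells, against 1528 in alpha/beta cells, 2.35-fold higher. Crk, an SH2 and SH3 domain adaptor, read 454 in gamma/delta cells, against 1039 in alpha/beta cells, 2.29-fold lower, but its 3 probe sets ran from -1.20 to -0.18 and their average was a bound of -0.05. The kinases that bind the Tyrobp and Fcer1g motif did not reach the call by the probe set that stands for the gene. Zap70 had a log2 ratio of 0.75, with 1261 in gamma/delta cells, against 752 in alpha/beta cells, and Syk one of -0.25, with 263 in gamma/delta cells, against 312 in alpha/beta cells. The 3 probe sets of Zap70 ran from 0.51, a bound, to 1.09, and without those of _x_at, _s_at or _a_at endings Zap70 passed the call at 1.09. The 2 probe sets of Syk disagreed, at -0.25 and 1.24. The partners of the Hcst motif, Grb2 and Pik3r1, had log2 ratios of 0.32 and -0.55, and their probe sets disagreed in sign as well. Those of Grb2 ran from -0.39 to 0.32, and those of Pik3r1 from -0.55 to 1.14, which is past the call towards gamma/delta cells. These 4 genes were chosen after their values were seen.

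Of 12 transcription factors that shape NK receptor expression, 11 had a ratio, of which 2 passed the call towards gamma/delta cells and 0 towards alpha/beta cells, and their median was 0.33. Runx3, a RUNX factor of CD8+ T cells and NK cells, read 1039 in gamma/delta cells, against 501 in alpha/beta cells, 2.07-fold higher. With its probe sets averaged Runx3 lay under the floor on both arrays. Nfil3, a bZIP factor needed for NK cell development, read 501 in gamma/delta cells, against 22.3 in alpha/beta cells, at least 2.06-fold higher. Tbx21 (T-bet) read 15.7 in gamma/delta cells, against 18.2 in alpha/beta cells, under the floor on both. Tbx21 was chosen after its values were seen.

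**Figure D3:**
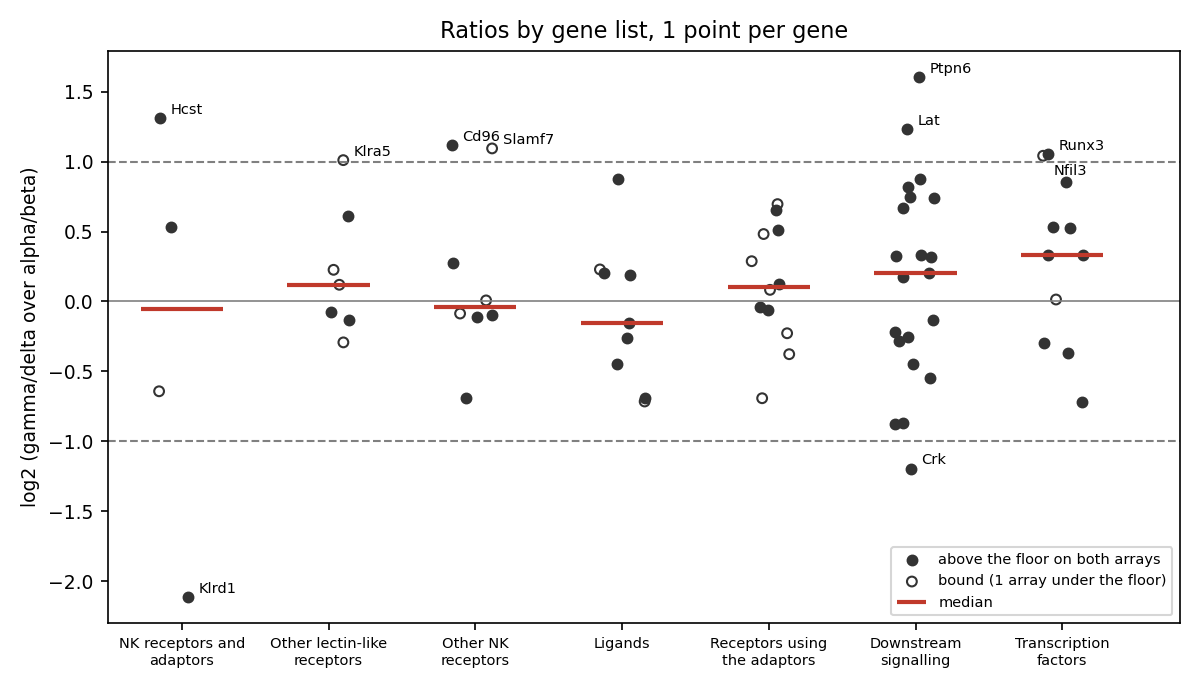
Log2 ratio (gamma/delta over alpha/beta) of each gene with a ratio, by list, with filled points for genes above the floor on both arrays, open points for bounds, red lines for medians and dashed lines at the 2-fold call. Klrd1 at -2.11 is the lowest point drawn and Ptpn6 at 1.61 the highest, and the medians lie between -0.16 and 0.33.

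The labels and other cell types were checked on the same arrays. The receptor segment Trgv4 was higher in gamma/delta cells by at least 51.5-fold, and Trgv1, another such segment, by at least 38.8-fold. The coreceptor chain Cd8a was 12.1-fold lower there and Cd8b1 5.74-fold lower, with the 5 probe sets of Cd8a running from -3.60 to a bound of -1.19 on the log2 scale, while Cd4 was under the floor on both arrays. Cd44, which the gamma/delta label gives as negative, read 525 in gamma/delta cells, against 421 in alpha/beta cells, both above the floor, and its 3 probe sets with a value disagreed, from -0.85 to 0.97 on the log2 scale. Of 10 measured NK cell markers, 5 were above the floor in gamma/delta cells, against 3 in alpha/beta cells, with summed signals of 3442 in gamma/delta cells, against 1966 in alpha/beta cells. Gzma, a granule protease, was the one marker past the call, with 1442 in gamma/delta cells, against 73.4 in alpha/beta cells, at least 5.93-fold higher. Without Gzma the sums over the other 9 markers were 2000.0 in gamma/delta cells, against 1893 in alpha/beta cells. All marker sums given here and below include signals under the floor. Of these 9 NK markers, 5 were under it on both arrays, so the near-equal sums do not compare the markers above it. Il2rb read 683 in gamma/delta cells, against 446 in alpha/beta cells, and Prf1 365 against 282. Eomes read 351 against 279. Cma1, which is also on the mast cell and basophil list below, read 289 against 240, the latter under the floor. None of these reached the call, and all 5 markers with a ratio lay towards gamma/delta cells. Second probe sets of Prf1 and Eomes lay the other way. The NK markers Ncr1 and Tyrobp were under the floor in both preparations, as were Klra8, Itga2 and Gzmb. Klrb1c, a defining NK marker, had only the probe set shared with Klrb1b, which was above the floor on both arrays. Tyrobp and Fcer1g are also abundant in myeloid cells, of whose 12 measured markers 3 were above the floor in gamma/delta cells, against 4 in alpha/beta cells, with summed signals of 4596 in gamma/delta cells, against 3351 in alpha/beta cells. Cst3, a protease inhibitor, made up most of these sums, with 2787 in gamma/delta cells, against 1691 in alpha/beta cells, and without it they were 1809 in gamma/delta cells, against 1660 in alpha/beta cells. S100a9 was also above the floor on both arrays, Adgre1 in gamma/delta cells alone, and Itgam and Fcgr1 in alpha/beta cells alone. The other 7 markers, Lyz2, Cd68, Csf1r and Cd14 among them, were under it on both. Of 7 mast cell and basophil markers, cells that also express Fcer1g, 3 were above the floor in each preparation, with sums of 1500 in gamma/delta cells, against 1905 in alpha/beta cells. Mcpt8, a basophil protease, read 395 in gamma/delta cells, against 576 in alpha/beta cells, and Gata2 read 271 against 385. Cma1 lay the other way with a bound of 0.25 on the log2 scale, and Cpa3 had a bound of -0.005. None of these reached the call, and the other 3 markers were under the floor on both arrays. Of 5 B cell markers, 2 were above the floor in gamma/delta cells, against 1 in alpha/beta cells, with sums of 1420 in gamma/delta cells, against 1184 in alpha/beta cells. Ms4a1 (CD20) made up most of these sums, with 858 in gamma/delta cells, against 616 in alpha/beta cells. Cd79b was above the floor in gamma/delta cells alone, with 254, against 188 in alpha/beta cells. Cd79a, Cd22 and Pax5 were under it on both arrays. The part of such cells in the Hcst and Fcer1g differences was not tested. RNA integrity was read as the ratio of 3′ to 5′ signal of 3 control transcripts. For actin it was 6.99 in gamma/delta RNA, against 3.12 in alpha/beta RNA, for Gapdh 3.06 in gamma/delta RNA, against 3.24 in alpha/beta RNA, and for the transferrin receptor 3.97 in gamma/delta RNA, against 4.47 in alpha/beta RNA. The actin ratio was thus the higher in gamma/delta RNA and the other two the lower, and the part of RNA integrity in the ratios was not tested either.

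**Figure D4:**
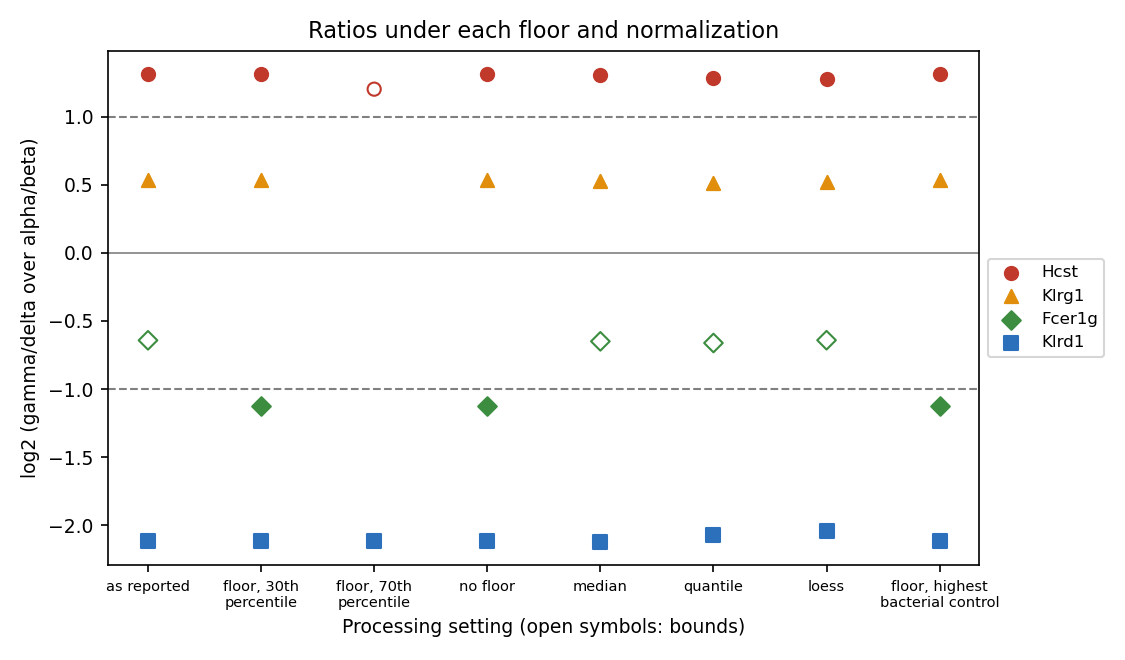
Log2 ratio of the 4 genes with a ratio under each floor and normalization, with open symbols for bounds and dashed lines at the 2-fold call. Hcst stays between 1.20 and 1.31 and Klrd1 between -2.12 and -2.04, while Fcer1g passes the call at -1.12 with each lower floor and has no ratio with the floor at the 70th percentile, nor has Klrg1.

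The directions and calls of Klrd1 and Hcst held under every floor and normalization tried, with log2 ratios from -2.12 to -2.04 for Klrd1 and from 1.20, a bound under the 70th percentile floor, to 1.31 for Hcst, while at a 3-fold call Klrd1 alone passed. Fcer1g was the one gene of the 4 with a ratio whose call depended on the floor.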

How the data were processed

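The values used are linear intensities as deposited, 1 for each probe set on each array. Per the submitters' processing notes, the authors derived them with the MAS5 algorithm, using Affymetrix Expression Console 1.0. Both arrays have a trimmed mean of 500.003 with 2% left out at each end, so a common scaling target had been applied. The algorithm subtracts a mismatch estimate, which leaves weak signals without order. No detection calls or scanner files entered the analysis. Precision is limited by the number of arrays.

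Gene names came from a platform annotation: 34945 probe sets had 1 symbol, 932 had several and 9160 were not listed, beside 64 controls. The gene identifiers of the 9 measured genes matched a RefSeq gene table of GRCm38.p6. Log2 ratios were taken with signals under the floor of 243.3 set to it. A probe set under the floor on 1 array gives a bound ("at least"), and one under it on both gives no ratio. The 27 bacterial probe sets without spike-in peaked at 167.2 (gamma/delta) and 161.8 (alpha/beta). No test was made. Alternatives were floors at the 30th and 70th percentile and none, median, quantile and loess normalization (span 0.3), probe sets averaged, probe sets without _x_at, _s_at or _a_at endings, and a 3-fold call. A floor at the highest bacterial signal, and running the list counts under all settings, were added after seeing the data. The code was tested on simulated data with known ratios (Python 3.11.15, pandas 2.3.3, numpy 2.4.6, statsmodels 0.14.6).

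Named are all 10 genes and, from each list, those past the call, or the one of the highest mean signal where none passed, a choice of names and not a ranking of transcripts. Named outside this rule were, among others, Klrc2, Klrc3 and Klrb1b. So were the genes marked as chosen after their values were seen and those that gained a call under other settings. With 2 arrays no likeness of pattern between genes can be measured. The genes and lists were chosen with earlier results of these data known.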

Additional observations from a re-analysis of the deposited data

Results flagged for a closer look

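Probe sets that carry several gene symbols stood outside the comparisons, and 13 of them touch the 10 genes or their lists. Of these, 4 were under the floor on both arrays and 9 were above it on at least 1, and these are given here as log2 ratios of gamma/delta to alpha/beta. None reached the 2-fold call. The probe set shared by Klrb1b and Klrb1c (NK1.1) had -0.09, and that shared by the Ly49 genes Klra9 and Klra3 had -0.21. Of the ligands, H2-T23, which encodes the Qa-1 molecule bound by CD94 receptors, shares 2 probe sets with a pseudogene. One read 3508 in gamma/delta cells, against 1894 in alpha/beta cells, a log2 ratio of 0.89, and the other 795 in gamma/delta cells, against 676 in alpha/beta cells, a ratio of 0.23. The NKG2D ligands Raet1e and Raet1d share a probe set with a bound of 0.50, from 345 in gamma/delta cells, against 128 in alpha/beta cells. Other receptors gave 0.50 and 0.07 for 2 probe sets of the paired immunoglobulin-like receptors Pirb, Pira2 and Pira1, 0.34 for Lilrb4a and Lilr4b, and a bound of -0.29 for Sirpb1a, Sirpb1b and Sirpb1c.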

How the results depend on the processing

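Again 2 of the 4 genes with a ratio were called, 1 in each direction, in median, quantile and loess normalization, with probe sets averaged, and without _x_at, _s_at and _a_at endings. These settings called from 8.16% to 9.77% of all genes with a ratio. With no floor 5 of 9 genes and 6 of 10 probe sets passed, against 30.3% of all genes and 34.4% of all probe sets. The added ones rested on signals under the floor. At a 3-fold call 1 of 4 genes and 1 of 4 probe sets passed, against 2.09% of all genes and 1.88% of all probe sets. Fcer1g had -1.12 with no floor and with the floor at the highest bacterial control or the 30th percentile. Across the array the genes called numbered 2328 with the floor at the 30th percentile, 680 at the 70th, 1755 at the highest bacterial control, 5510 with no floor and 249 at 3-fold, against 1161. The probe sets numbered 4371, 1047, 3143, 12026 and 381 in the same order, against 1943. Of 120 list counts under the alternatives, 22 moved by more than 1.5 times or changed to or from 0. With the floor at the 70th percentile Klra5, Slamf7, Nfil3 and Ptpn6 lost the call (bounds of 0.13, 0.22, 0.16 and 0.97). Klra5 also lost it with quantile normalization (a bound of 0.99), and Ptpn6 (a bound of 0.80), Crk and Runx3 lost it with probe sets averaged. Without _x_at, _s_at and _a_at endings Zap70 and Lair1 gained the call (1.09 and a bound of 2.06). Bcl11b gained it with quantile (1.06) and loess normalization (1.10). With the floor at the 30th percentile Cdh4 (a bound of -1.62), Cd300lb (1.24) and Clec4e (1.04) gained it, where 15.1% of all genes passed. With the floor at the highest bacterial control Cdh4 and Cd300lb gained it (bounds of -1.26 and 1.02). With no floor further genes gained it, resting on signals under the floor. At 3-fold Ptpn6 alone passed in the lists by role, which leave out the cell type markers and label checks. No paired analysis was possible because each group has 1 array. The size of any difference between animals is not known from these data.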
